A study of Mus musculus with 16 samples.

Results

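The response of control leukemia cells to low oxygen was followed in 8 of the 16 libraries of the study, the 4 control libraries labelled 2% oxygen and the 4 labelled 20% oxygen, which were chosen by their labels and by no measured value. The cells are a mouse acute myeloid leukemia (AML) line driven by MLL-AF9, a fusion oncoprotein that keeps myeloid progenitors dividing, grown in RPMI medium with serum (FBS), IL-3 and SCF. Every group carried Cas9 that had been induced by 4-OHT: the control groups, at 20% and at 2% oxygen, had a non-targeting gRNA, and the MCT4-KO groups, at 20% and at 2% oxygen, had MCT4 knocked out. The control cells thus keep MCT4, the proton and lactate exporter encoded by Slc16a3. All are cells of 1 cultured line, and the sources used here do not give the time at 2% oxygen, the number of clones or the guide sequences. Whether the numbered replicates were grown separately is not stated, and p-values therefore speak only of the spread among these libraries, which may be technical.

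Cells sense oxygen through prolyl hydroxylases (the Egln enzymes), which use oxygen to mark the alpha subunits of the hypoxia-inducible factors (HIF) for destruction by the Vhl ubiquitin ligase. When oxygen falls, HIF alpha protein persists, pairs with Arnt and binds promoters that carry the core motif ACGTG or GCGTG, the hypoxia response element. Its known targets shift metabolism from respiration to glycolysis with export of lactate and protons, remove mitochondria, modify collagen and signal to blood vessels. The control of HIF is on the protein, so messenger RNA of the alpha subunits is a poor measure of it.

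Each control library held 21192180 to 25039670 estimated counts, of which the 13774 tested genes took 99.9%. Along the first principal component of the 8 libraries, with 81.2% of the variance, the 4 libraries at 2% oxygen lay at 54.9 to 56.8 and the 4 at 20% at -59.9 to -52.7, so the oxygen levels were fully separated. Replicate 4 at 2% oxygen stood apart from the other 3 of its group, at 27.5 on the second component, which held 4.07%. Its chi-square was 8.09 to 11.9 per gene against them, where those 3 differed from each other by 2.49 to 3.23. Values without replicate 4 are given where it changes a call. Among the 4 libraries at 20% oxygen the chi-square was 3.36 to 8.57 per gene, so those differed from each other as well. Mitochondrially encoded genes took 0.750 ± 0.179% of the counts at 20% oxygen and 0.298 ± 0.044% at 2% (SD, n = 4, exact two-sided permutation p = 0.0286, the smallest that 70 splits can give). TMM scaling factors were 1.06 at 20% and 0.923 at 2% oxygen. No spike-in is described, so levels are relative abundances, and fewer cells of a type cannot be told apart from less RNA per cell.

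Most tested genes differed between the oxygen levels. Separate cultures are not stated, so an effect of oxygen cannot be told apart from a difference between cultures. Of the 13774 genes, 10790 (78.3%) were called, that is, had an adjusted p under 0.05 in edgeR's quasi-likelihood test, with 5332 (38.7%) higher and 5458 (39.6%) lower at 2% oxygen. Calls of at least 1.5-fold made up 39.0% of the tested genes (20.1% higher and 18.8% lower), and calls of at least 2-fold 20.3% (11.4% higher and 8.81% lower). For 70.2% of the genes the 4 libraries of the oxygen levels did not overlap. Since most genes were called, the size of a change says more than its call. Counts of the gene lists below are to be read against 38.7% higher and 39.6% lower among all tested genes. Calls near those shares do not set a list apart. That holds for histone lysine demethylases, heat shock proteins, the BCL2 family, nucleotide synthesis and myeloid transcription factors. Medians of the lists stand beside a median log2 fold change of -0.017 over all tested genes. With scaling by library size that median moved by -0.20, and 3874 genes were called higher and 7121 lower (35.2% of calls higher, against 49.4% with TMM). The excess of large rises turned as well, from 1577 higher and 1214 lower by at least 2-fold with TMM to 1249 higher and 1791 lower.

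**Figure D1:**
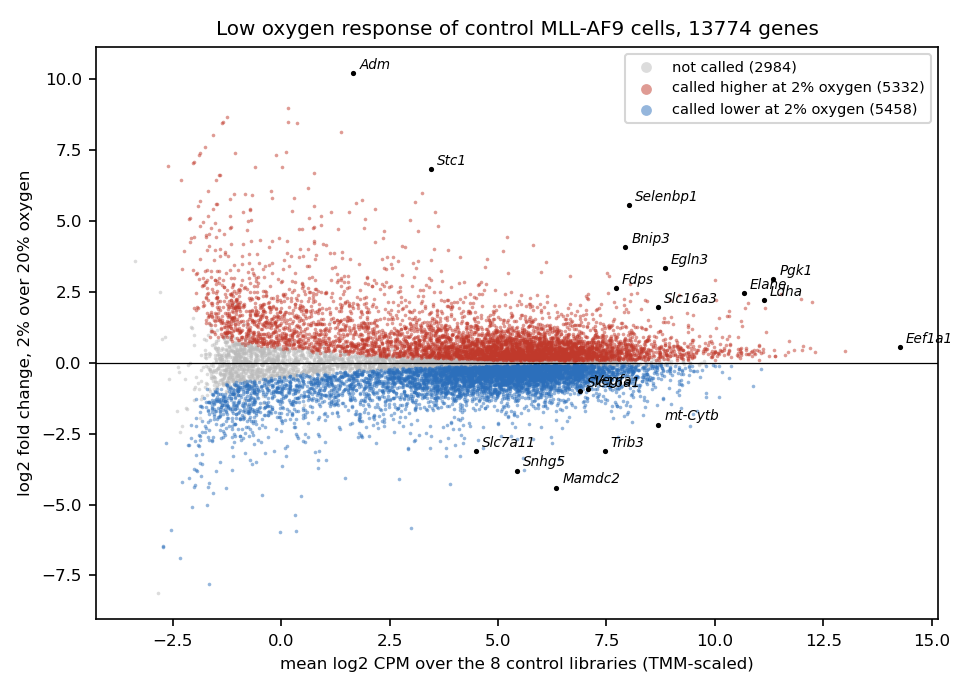
Log2 fold change at 2% against 20% oxygen (vertical axis) against mean log2 CPM over the 8 control libraries (horizontal axis) for the 13774 tested genes, each point a gene, in red where called higher (5332), blue where called lower (5458) and grey where not called. Adm, Stc1 and Selenbp1 lie far above 0, and Mamdc2, Snhg5 and Trib3 far below it.

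Slc16a3 (ENSMUSG00000025161, chromosome 11, 120948480 to 120960868, plus strand, GRCm38), which the control guide leaves intact, was measured in every control library. It read 235, 199, 184 and 222 CPM (counts scaled to a common depth, after TMM) at 20% oxygen and 789, 844, 810 and 804 CPM at 2%. All 4 libraries at 2% stood above all 4 at 20%, a rise of 1.95 ± 0.074 on the log2 scale (3.87-fold; edgeR adjusted p = 1.73e-15). Its chaperone Bsg (basigin), which carries the transporter to the plasma membrane, rose from 251 ± 12.7 to 1313 ± 76.0 CPM (SD, n = 4; 5.23-fold). Slc16a1, the gene of the related carrier MCT1, went the other way, from 169, 172, 177 and 160 CPM to 80.4, 86.1, 82.4 and 87.4 CPM, again without overlap (-1.01 ± 0.039, 2.01-fold lower). The transcripts of these related carriers moved in opposite directions in the same libraries.

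Among the 11 tested genes of HIF subunits and oxygen sensors, 6 rose and 4 fell, with a median of 0.11 that turned to -0.10 when scaled by library size. The rises were led by the hydroxylase gene Egln3, at 167, 128, 131 and 158 CPM at 20% oxygen and 1364, 1534, 1455 and 1492 CPM at 2%. That was 10.02-fold with no overlap (3.32 ± 0.076, edgeR adjusted p = 5.23e-19). Egln1, the main hydroxylase of HIF alpha, rose 2.92-fold (120 ± 3.73 to 349 ± 13 CPM), and Egln2 fell from 69.0 to 54.3 CPM (-0.35). Epas1, which encodes HIF-2 alpha, rose 7.49-fold from a low level (0.867 ± 0.175 to 6.58 ± 0.667 CPM). Hif1a itself read 293, 291, 325 and 309 CPM at 20% and 289, 295, 280 and 258 CPM at 2%. The ranges overlapped, and the call (-0.12 ± 0.045, edgeR adjusted p = 0.0226) was lost without replicate 3 (-0.087) or 4 (-0.11) at 20% oxygen or replicate 4 at 2% (-0.081). Its exons overlap those of Gm15283 and Gm49321.

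HIF targets in growth and signalling had 14 of 19 tested members higher and 3 lower, 12 of them higher by at least 2-fold, with a median of 1.39. Adm, the gene of the vasodilator peptide adrenomedullin, was all but silent at 20% oxygen, with 3, 1, 0 and 2 counts, and reached 1344, 1960, 1657 and 1851 counts at 2%. Stc1, the gene of the hormone stanniocalcin 1, went from 1.51, 0.422, 0.534 and 1.75 CPM to 122, 129, 126 and 109 CPM. Both were higher in every library at 2% oxygen than in any at 20%, and for Stc1 the rise was 113-fold (6.82 ± 0.146). The circadian repressor gene Bhlhe40 rose 17.7-fold (13.3 ± 2.84 to 236 ± 10.1 CPM), the stress gene Ndrg1 5.38-fold and the cytokine gene Mif 2.22 on the log2 scale. The fall of Vegfa, the best known angiogenic target, went against the list: its levels were 191, 177, 184 and 189 CPM at 20% oxygen and 87.3, 105, 98.9 and 97.5 CPM at 2%, without overlap (-0.93 ± 0.043, 1.91-fold lower). Pgf (-1.21) and Angptl4 (-0.41), a placental growth factor and a lipase inhibitor, fell as well.

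Bnip3, whose product marks mitochondria for autophagy and which is a textbook HIF target, read 78.5, 45.7, 43.6 and 72.9 CPM at 20% oxygen and 933, 1022, 995 and 1127 CPM at 2%. The groups lay 16.9-fold apart (4.08 ± 0.188, edgeR adjusted p = 4.37e-14), and its exons overlap those of Gm45507. Its relative Bnip3l rose 4.74-fold (109 ± 4.54 to 518 ± 8.86 CPM). Of the 25 tested mitophagy and autophagy genes 19 rose and 4 fell (median 0.37; 13 and 6 when scaled by library size), but only 5 rose at least 2-fold, with Pink1, a kinase that flags damaged mitochondria, at 1.07. The autophagy receptor gene Sqstm1 fell from 856 to 385 CPM (-1.15). At 20% oxygen replicates 1 and 4 lay above replicates 2 and 3 for Bnip3, and so they did for Stc1 and for the HIF target Ankrd37 (15.3 and 12.6 CPM against 7.56 and 7.34). All 4 libraries at 2% stood above them, Ankrd37 at 59.6, 59.5, 61.8 and 72.5 CPM (5.88-fold).

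Further members of the classical response moved the same way. Targets of pH, redox and folding had 7 of 9 tested members higher and 1 lower (median 1.53), with the mitochondrial kinase gene Ak4 up 9.04-fold, the heme oxygenase gene Hmox1 6.76-fold and Ero1l, the oxidase that forms disulfide bonds in the endoplasmic reticulum, 2.79-fold (933 ± 22 to 2606 ± 167 CPM). Car12, a carbonic anhydrase gene, was the member that fell (-0.88). Enzymes that hydroxylate collagen rose: P4ha2 24.7-fold (1.02 to 25.7 CPM), Plod2 13.1-fold (4.77 to 62.7 CPM) and P4hb from 688 to 2423 CPM. Their substrate gene Col4a1, for a basement membrane collagen, fell from 144, 163, 167 and 143 CPM to 12.8, 16.5, 14.8 and 15.7 CPM (10.3-fold lower), and its exons overlap those of Col4a2, which rose from 0.533 ± 0.186 to 1.68 ± 0.239 CPM (1.64). In that list of 13 tested genes 11 rose and 2 fell (median 1.43). Histone lysine demethylases, which also use oxygen, were higher in 9 and lower in 11 of 22 (4 and 13 when scaled by library size), with Kdm3a (1.13) and Kdm4b (1.09) above 2-fold and Riox2 (-0.80) the lowest.

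Promoters are shown for genes at the head of the response, since the hypoxia response element is where HIF meets DNA. They are the RefSeq windows (GRCm38.p6) from 250 bases before to 50 after the annotated start, printed 5′ to 3′ on the strand of the gene, with capitals marking ACGTG or GCGTG on either strand and overlapping matches joined in 1 run. Of the 12 largest rises named below 8 had a promoter in the table, and the 5 highest of those that hold the motif are given with Slc16a3, for genes with several starts at the start listed first among those that hold it.
Selenbp1 (chr3:94932833-94933132, plus strand): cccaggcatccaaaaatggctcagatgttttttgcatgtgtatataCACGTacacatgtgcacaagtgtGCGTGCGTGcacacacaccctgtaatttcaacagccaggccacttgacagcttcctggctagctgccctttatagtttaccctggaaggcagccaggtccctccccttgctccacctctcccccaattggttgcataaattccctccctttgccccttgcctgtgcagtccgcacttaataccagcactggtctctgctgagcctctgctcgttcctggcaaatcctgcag
Mgarp (chr3:51396498-51396797, minus strand): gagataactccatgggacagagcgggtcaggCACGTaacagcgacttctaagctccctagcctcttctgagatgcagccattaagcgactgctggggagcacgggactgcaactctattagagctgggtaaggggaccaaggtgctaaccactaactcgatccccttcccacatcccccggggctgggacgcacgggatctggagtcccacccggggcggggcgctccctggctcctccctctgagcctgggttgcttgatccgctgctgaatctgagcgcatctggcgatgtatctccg
Ndrg2 (chr14:51913439-51913738, minus strand): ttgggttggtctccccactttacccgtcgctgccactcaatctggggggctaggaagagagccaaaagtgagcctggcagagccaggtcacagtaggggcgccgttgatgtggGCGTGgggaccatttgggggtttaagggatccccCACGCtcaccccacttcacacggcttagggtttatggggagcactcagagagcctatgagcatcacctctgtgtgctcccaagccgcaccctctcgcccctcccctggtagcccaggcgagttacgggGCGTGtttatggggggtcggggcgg
Aldoc (chr11:78322823-78323122, plus strand): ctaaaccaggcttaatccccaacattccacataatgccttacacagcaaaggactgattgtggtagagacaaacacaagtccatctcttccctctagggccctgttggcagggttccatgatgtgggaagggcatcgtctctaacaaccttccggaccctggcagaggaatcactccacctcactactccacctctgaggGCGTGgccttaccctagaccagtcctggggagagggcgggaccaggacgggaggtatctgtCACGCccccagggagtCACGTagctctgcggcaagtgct
Bnip3 (chr7:138909457-138909756, minus strand): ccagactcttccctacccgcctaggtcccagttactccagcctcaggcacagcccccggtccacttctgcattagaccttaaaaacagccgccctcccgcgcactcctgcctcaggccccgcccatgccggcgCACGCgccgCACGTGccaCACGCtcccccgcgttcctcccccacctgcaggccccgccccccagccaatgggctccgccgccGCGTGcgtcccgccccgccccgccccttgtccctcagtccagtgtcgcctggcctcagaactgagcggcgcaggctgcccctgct
Slc16a3 (chr11:120948817-120949116, plus strand): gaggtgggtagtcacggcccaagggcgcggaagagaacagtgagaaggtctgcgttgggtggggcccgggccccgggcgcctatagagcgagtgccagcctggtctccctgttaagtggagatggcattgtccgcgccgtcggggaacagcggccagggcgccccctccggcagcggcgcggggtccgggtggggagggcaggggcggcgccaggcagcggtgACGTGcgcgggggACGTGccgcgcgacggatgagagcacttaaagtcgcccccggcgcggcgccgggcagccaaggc
Bnip3 holds 4 marked runs, 1 of them CACGTG, which reads ACGTG on each strand; Ndrg2 and Aldoc hold 3, Selenbp1 and Slc16a3 2 and Mgarp 1. The motif is short and common: 43.8% of all 32851 promoters in the table held it, and 67.2% of the tested genes with a promoter had it in at least 1 of their starts. By the same count 65.7% of the genes that rose at least 2-fold and 64.7% of those that fell at least 2-fold had it. Of lists that rose, 19 of 23 glycolysis genes, 14 of 14 HIF targets in growth and signalling and 14 of 20 cholesterol genes with a promoter held it, and of lists that fell, 24 of 31 genes of the Atf4 response and 9 of 11 host RNAs. Just 72.0% of the tested genes have a promoter in the table, so the shares of genes describe only those that do. Among them the shares of genes that rose or fell at least 2-fold lay near that of all tested genes. No difference between shares was tested. The share of 43.8% counts promoters rather than genes and cannot be set beside the others. A match does not show that a factor binds there.

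Transcripts of glycolysis rose in their sum and in most genes. The 24 tested genes took 1.11 ± 0.0505% of all counts at 20% oxygen and 4.46 ± 0.0504% at 2% (SD, n = 4, exact two-sided permutation p = 0.0286). Of them 20 rose, 17 by at least 2-fold, 3 fell, and the median was 1.78. Slc2a3, the gene of a high-affinity glucose carrier, rose from 105, 93.8, 95.9 and 111 CPM to 655, 745, 671 and 702 CPM (6.84-fold), and Slc2a1 rose 5.11-fold. Slc2a1, Tpi1, Gapdh, Pfkl, Gpi1, Pgam1 and Hk2 were chosen for naming after their values were seen.

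Enzymes along the whole path were higher. Gpi1, which converts the phosphate of glucose to that of fructose, was at 837 and 3574 CPM, and the phosphofructokinase gene Pfkl at 125 and 688 CPM. Aldoa, an aldolase gene, read 1309, 1221, 1193 and 1337 CPM at 20% oxygen and 6830, 6727, 6681 and 6756 CPM at 2% (5.34-fold), and its relative Aldoc rose 25.0-fold from 1.74 to 43.7 CPM. Pgk1, which makes the first ATP of the path, read 1067, 866, 843 and 988 CPM and then 6946, 7107, 7144 and 7780 CPM. That 7.70-fold rise (2.94 ± 0.075) and the 7.52-fold rise of Tpi1 were above those of Gapdh (1.92), Pgam1 (1.63), Eno1 (2.12 ± 0.040) and Pkm (2.25 ± 0.041) on the log2 scale. Hexokinase 2 (Hk2), the entry enzyme, rose least of the enzymes named (0.996).

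By level, Pgk1, Eno1, Pkm and Aldoa were 4 of the 6 genes with the highest CPM at 2% oxygen, beside the translation factors Eef1a1 (0.54 ± 0.035) and Eef2 (0.42 ± 0.035). Per kilobase of merged exons in GENCODE vM21, Pgk1 went from 419 to 3228 CPM, Aldoa from 434 to 2318, Eno1 from 432 to 1878 and Pkm from 372 to 1771. At 20% oxygen these 4 levels lay close together, and at 2% Pgk1 stood highest. The genes that fell were Tigar (-0.70), whose product lowers the activator of phosphofructokinase, Pfkfb2 (-0.64) and the carrier gene Slc2a6 (-0.40). Reads of Gapdh, Aldoa, Eno1, Tpi1, Pgam1 and Ldha are uncertain, because these genes have processed copies in the genome among which counting can divide reads.

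**Figure D2:**
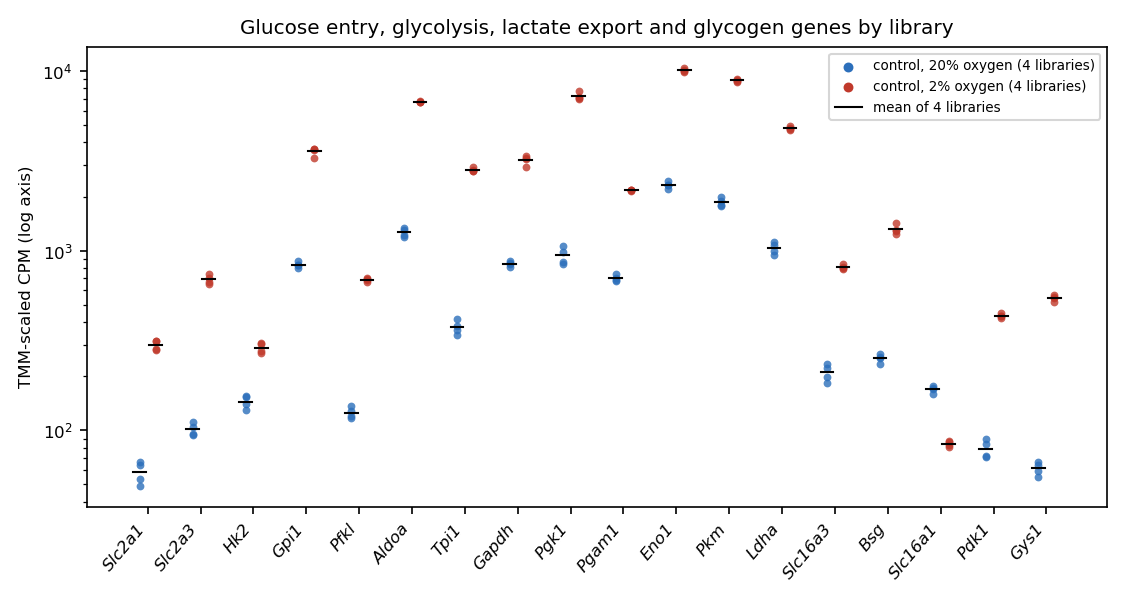
TMM-scaled CPM (vertical axis, log scale) of genes of glucose entry, glycolysis, lactate export and glycogen synthesis in each of the 4 control libraries at 20% (blue) and 2% oxygen (red), with the mean as a bar. Every gene shown separates the oxygen levels without overlap, and Slc16a1 is the gene that is lower at 2% (169 against 84.1 CPM).

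Genes of pyruvate handling changed in both directions. Ldha, the lactate dehydrogenase subunit that favours lactate, rose from 1123, 992, 944 and 1078 CPM to 4716, 4841, 4736 and 4932 CPM (4.65-fold, 2.22 ± 0.056). Pdk1, a kinase that shuts pyruvate dehydrogenase, rose from 79.1 ± 9.36 to 434 ± 10.4 CPM (5.49-fold) and Pdk3 by 1.07 on the log2 scale. The pyruvate dehydrogenase parts Pdhx (-0.79) and Dld (-0.77) fell. Over the 20 tested genes of pyruvate and lactate handling 11 rose and 6 fell (median 0.22), but 9 rose and 10 fell when scaled by library size (median 0.02). Glycogen metabolism had 14 of 19 higher and 2 lower (median 0.62), among them the synthase Gys1, from 64.2, 55.2, 59.5 and 66.3 CPM to 543, 564, 554 and 515 CPM (8.87-fold), the branching enzyme Gbe1 (3.88-fold), Pgm1 (6.26-fold) and Pygl, the phosphorylase that breaks glycogen down (3.34-fold). Synthesis and breakdown genes thus rose together. Gys1 overlaps Ruvbl2. In the pentose phosphate pathway, which makes NADPH, 7 of 9 rose and 1 fell (median 0.53), with Pgd at 1.06.

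Genes of the mitochondrial respiratory chain parted by the genome that encodes them. Of 15 genes on the mitochondrial chromosome 13 fell, 10 by at least 2-fold, and 1 rose (median -1.48). mt-Cytb, a subunit of complex III, fell from 724, 718, 1226 and 938 CPM to 239, 218, 193 and 143 CPM, without overlap and 4.55-fold (-2.19 ± 0.155). mt-Rnr1, the small ribosomal RNA, was the gene that rose (135 ± 20.5 to 237 ± 11.7 CPM, 0.82 ± 0.076). The libraries were made by poly(A) selection, and this RNA carries at most a short poly(A) tail. Nuclear genes of complex I were higher in 29 of 36 and lower in 2 (median 0.31; 17 and 5 when scaled by library size), and those of complexes III to V in 31 and 3 of 36 (median 0.52; 27 and 4). Most of these rises were small: the sole gene of complex I above 2-fold was Ndufv3 (3.17-fold), and those of the later complexes were Uqcrh (1.36) and Cox7b (1.01). Cox6a2, a muscle-type cytochrome oxidase subunit outside these lists, fell from 43.8 ± 3.90 to 5.91 ± 0.688 CPM (7.40-fold lower).

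Most genes of the machinery that expresses the mitochondrial genome fell. Of its 26 tested genes 20 fell and 4 rose (median -0.43; 21 and 0 when scaled by library size). Pprc1, a coactivator of mitochondrial biogenesis, fell 3.03-fold (84.8 ± 4.87 to 28.0 ± 2.12 CPM), Lrpprc, which stabilises mitochondrial messenger RNA, 2.10-fold, and the DNA helicase gene Twnk by 1.04 on the log2 scale. Of 77 mitochondrial ribosomal protein genes 37 fell and 18 rose (median -0.11; 56 and 10, median -0.32, when scaled by library size), and the lowest was Mrps18b (-1.32). In the TCA cycle list 19 of 22 rose and 2 fell (median 0.34; 12 and 4 when scaled by library size), most strongly the malic enzyme genes Me2 (4.51-fold) and Me1 (4.29-fold) and the cytosolic isocitrate dehydrogenase gene Idh1 (1.70). For fatty acid oxidation 9 of 19 rose and 6 fell, 0 of them by 2-fold, with a median of 0.11 that turned to -0.09 when scaled by library size.

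Most genes of lipid synthesis rose, above all those of cholesterol. In the list of cholesterol synthesis and uptake 27 of 29 tested genes rose, 22 by at least 2-fold, and 1 fell (median 1.55). Fdps, which makes farnesyl diphosphate and was named after its value was seen, read 88.0, 83.8, 77.0 and 88.9 CPM at 20% oxygen and 496, 507, 507 and 566 CPM at 2%. The levels did not overlap (6.14-fold, 2.62 ± 0.058). Acat2 (20.1 ± 0.872 to 105 ± 1.52 CPM) and Idi1 (50.3 ± 1.18 to 191 ± 5.82 CPM), early enzymes of the path, rose 5.21-fold and 3.79-fold, and the sterol sensor gene Insig1 rose too (1.96). Abca1, which exports cholesterol, was the member that fell (5.38 ± 0.834 to 1.10 ± 0.254 CPM, 4.85-fold lower). Soat2, which esterifies cholesterol for storage and stands outside the list, fell from 56.5, 53.6, 49.2 and 56.8 CPM to 5.32, 6.002, 5.05 and 5.58 CPM (9.84-fold lower).

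Of 29 genes of fatty acid synthesis and lipid storage 18 rose, 10 by at least 2-fold, and 7 fell (median 0.55). The desaturase gene Scd1, whose enzyme needs oxygen, read 21.8, 19.7, 17.3 and 21.1 CPM and then 245, 243, 226 and 222 CPM, 11.7-fold higher without overlap (3.55 ± 0.055). Fads2, another desaturase gene, rose 8.86-fold and Lpin1, a phosphatidate phosphatase gene, 7.22-fold. Acss2, which turns acetate into acetyl-CoA, rose 15.5-fold (3.62 ± 0.251 to 56.4 ± 2.17 CPM), and its exons overlap those of Ggt7 and Gss. The storage enzyme gene Dgat2 fell from 112 to 39.1 CPM (-1.52).

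Most genes of the amino acid response fell. Atf4, the transcription factor that drives it and a gene named after its value was seen, read 860, 866, 820 and 803 CPM at 20% oxygen and 269, 329, 292 and 329 CPM at 2%. It was lower without overlap (-1.46 ± 0.051, 2.75-fold), and of the 36 tested genes of the response 31 fell, 19 by at least 2-fold, and 4 rose (median -1.13). Trib3, a pseudokinase that feeds back on Atf4, fell from 521, 548, 495 and 510 CPM to 47.5, 67.4, 54.7 and 71.8 CPM (8.59-fold). The cystine carrier gene Slc7a11 fell from 67.0 ± 3.20 to 7.61 ± 1.49 CPM (8.76-fold), the related factor Atf5 6.09-fold, the glycine carrier gene Slc6a9 7.06-fold, the leucine carrier gene Slc7a5 3.58-fold and Cth, which makes cysteine, 4.42-fold. Atf5 overlaps Nup62 and Il4i1. Mthfd1l, a mitochondrial folate enzyme, rose with 3 others of the list (1.02).

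Aminoacyl-tRNA synthetases, which charge tRNA and include known Atf4 targets, fell in 15 of 20 and rose in 4 (median -0.63). Wars, for tryptophan, fell 3.86-fold (393 ± 22 to 102 ± 8.06 CPM) and Aars, for alanine, by 1.28 on the log2 scale. Ribosome assembly genes fell in 46 of 52, 19 of them by at least 2-fold, and rose in 4 (median -0.62). Nop58, a core protein of the particles that methylate ribosomal RNA, read 351, 363, 362 and 319 CPM and then 101, 109, 109 and 110 CPM, without overlap (3.24-fold lower). Nop56, its partner, changed by -1.45 and the helicase gene Ddx21 by -1.495. The ribosomal proteins themselves rose in 71 of 75 and fell in 1 (median 0.39; 52 and 3 when scaled by library size), each rise less than 2-fold, and their share of the counts went from 9.20% to 10.6%. Rps4x rose by 0.58 on the log2 scale, while Rpl12 was the member that fell (110 ± 6.75 to 50.8 ± 5.64 CPM). These genes have many processed copies, so their counts are uncertain.

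Myc, the oncogene whose product drives ribosome assembly genes, read 395, 401, 423 and 405 CPM at 20% oxygen and 263, 295, 279 and 247 CPM at 2%. It fell without overlap (-0.58 ± 0.046), and so did its partner Max (-0.58). Of the genes of Myc antagonists, Mxd1 rose from 20.96 ± 2.64 to 95.0 ± 4.07 CPM (4.52-fold) and Mxi1, also a HIF target, 2.61-fold. Mga, another such gene, was called lower, with 2811, 2449, 2505 and 3143 counts at 20% oxygen and 1806, 1747, 1682 and 1496 at 2%. In the network of Myc and glucose sensing 9 of 16 rose and 6 fell, with a median of 0.14 that turned to -0.07 when scaled by library size. Of the glucose-responsive arrestin genes, Txnip was not called (263 ± 6.20 and 259 ± 13.9 CPM, edgeR adjusted p = 0.590) and with library-size scaling was called lower (-0.23). Arrdc4 fell (-0.32) and Arrdc3 rose 7.61-fold. Nucleotide synthesis had 10 of 26 genes higher and 12 lower (median -0.08; 9 and 16, median -0.29, when scaled by library size), and the purine enzyme genes Gart (234 ± 13.4 to 142 ± 4.32 CPM) and Ppat (-0.72) were among those that fell.

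Host genes of small nucleolar RNAs and nuclear-retained RNAs held some of the strongest falls. Of 17 tested 16 fell, 9 by at least 2-fold, and 0 rose (median -1.05). Snhg5 went from 167, 167, 161 and 150 CPM to 9.25, 12.3, 10.8 and 13.99 CPM, and Snhg12 from 184, 187, 181 and 163 CPM to 12.3, 12.5, 12.6 and 14.5 CPM. In neither gene did the groups come near each other, with 13.95-fold and 13.8-fold lower levels. Snhg1 fell 10.5-fold, Snhg17, outside the list, 8.10-fold and Zfas1 4.10-fold. The exons of Snhg1, Snhg5 and Snhg12 overlap those of the small nucleolar RNAs they host.

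**Figure D3:**
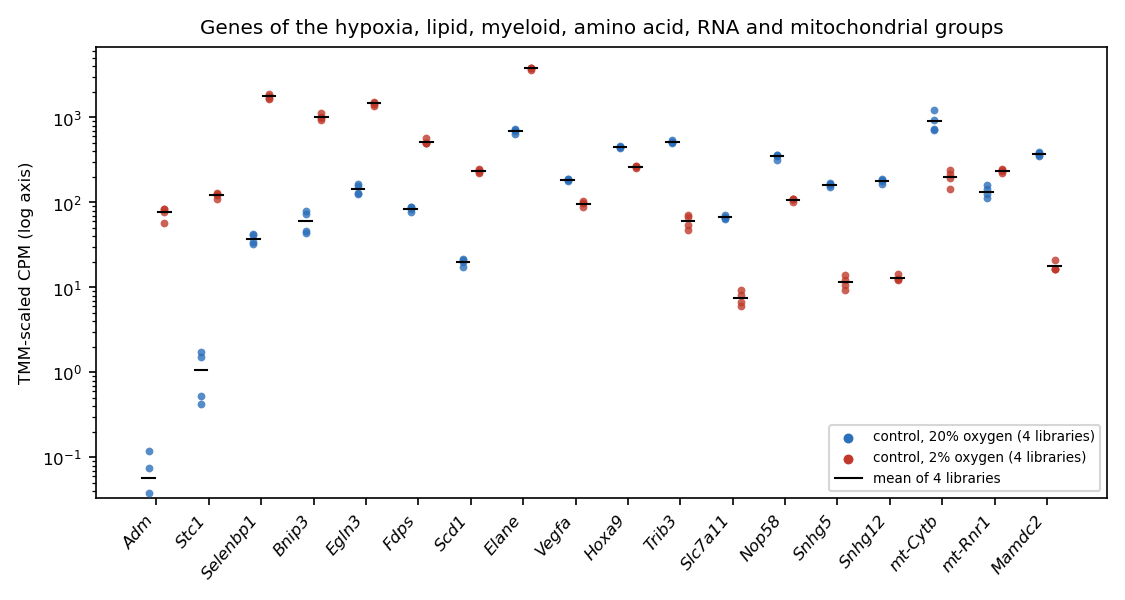
TMM-scaled CPM (vertical axis, log scale) in each control library at 20% (blue) and 2% oxygen (red), with the mean as a bar, for genes of the HIF, lipid, myeloid, amino acid, RNA and mitochondrial groups. The red and blue points of each gene are apart, and the 20% library of Adm with a count of 0 is not drawn.

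**Figure D4:**
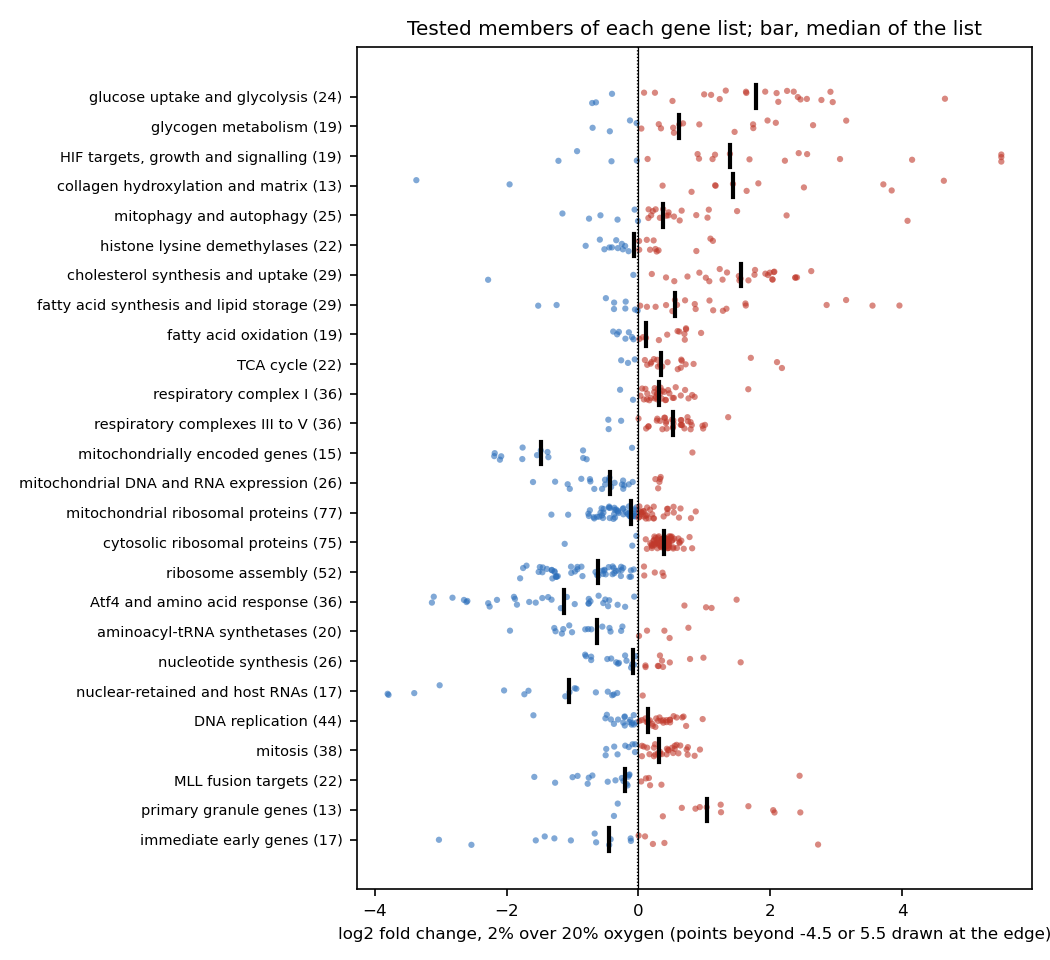
Log2 fold change at 2% against 20% oxygen (horizontal axis) of the tested members of 26 gene lists, each point a gene and each bar the median of a list, with the number tested in brackets. Glycolysis (median 1.78) and cholesterol synthesis (1.55) lie to the right, while mitochondrially encoded genes (-1.48), the Atf4 response (-1.13) and host RNAs (-1.05) lie to the left.

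Heat shock genes were divided near the shares of all tested genes (38.7% higher and 39.6% lower). Folding genes were divided as well, while genes of Nrf2 and glutathione mostly rose. Of 19 heat shock protein genes 8 rose and 10 fell (median -0.17; 4 and 11 when scaled by library size), with Hspa8 at 0.89, and genes of endoplasmic reticulum folding had 12 of 23 higher and 8 lower, with a median of 0.12 that turned to -0.08 when scaled by library size. Within the second list the disulfide isomerase gene Pdia6 rose 2.66-fold (299 ± 14.1 to 795 ± 28.1 CPM), while Herpud1 (-1.56) and Ern1 (-1.11), which sense or relieve misfolded protein, fell. Of 22 genes of Nrf2 and glutathione 15 rose and 5 fell (median 0.63, with 15 and 7 when scaled by library size). Gsr, glutathione reductase, stood at 0.95 and Txnrd1, thioredoxin reductase, at -0.46. The genes that fell included Nfe2l2, the gene of Nrf2 itself, with 1842, 2091, 1822 and 2104 counts at 20% oxygen and 1331, 1296, 1210 and 1136 at 2%. Gclc and Slc7a11 (-3.13, the lowest of the list) were called lower too. In the heme and iron list 10 of 18 rose and 6 fell (median 0.19, or -0.01 when scaled by library size). The ferritin gene Ftl1 rose 2.09-fold (1593 ± 85.4 to 3330 ± 79.6 CPM), and Slc25a37, the mitochondrial iron importer, fell (-0.79).

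The medians of the cell cycle lists shifted by small amounts, while some single genes changed by more than 2-fold. Of 44 DNA replication genes 24 rose and 12 fell (median 0.15, or -0.06 when scaled by library size), 0 rose by 2-fold, and Orc2 of the origin recognition complex fell 3.02-fold (100 ± 2.56 to 33.2 ± 1.02 CPM). Mitosis genes rose in 26 of 38 and fell in 6 (median 0.31; 20 and 12 when scaled by library size), the mitotic kinase gene Cdk1 by 0.55. Among G1 cyclins and inhibitors 14 of 26 rose and 9 fell (median 0.15, or -0.06 when scaled by library size). Ccnd3, cyclin D3, rose 2.48-fold (175 ± 10.9 to 435 ± 2.71 CPM), and so did the arrest genes Cdkn1a, the p21 inhibitor (2.40-fold, 123 ± 4.50 to 296 ± 21.3 CPM), and Ccng2 (2.40-fold). The BCL2 family of survival and death genes had 9 of 18 higher and 8 lower (median 0.03, or -0.17 when scaled by library size), Bnip3 and Bnip3l among those that rose and the death gene Bbc3 (2.36-fold) among those that fell.

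Granule genes of promyelocytes were higher at 2% oxygen. Of 13 tested primary granule genes 11 rose, 7 by at least 2-fold, and 2 fell (median 1.03). Elane, neutrophil elastase, read 690, 711, 647 and 723 CPM at 20% oxygen and 3597, 3859, 3843 and 3876 CPM at 2%. All libraries at 2% stood higher (5.48-fold, 2.45 ± 0.049). Prtn3, proteinase 3, rose 3.17-fold, Cst7, a protease inhibitor, 4.18-fold and Mpo, myeloperoxidase, 2.37-fold (139 ± 14.5 to 329 ± 27.8 CPM), whereas the cathepsin G gene Ctsg fell (-0.31). Of 13 secondary granule and neutrophil genes 8 rose and 3 fell (median 1.03): the neutrophil surface gene Ly6g went from 1.51, 1.19, 1.60 and 1.12 CPM to 36.5, 44.3, 44.7 and 50.4 CPM, and Lcn2, lipocalin 2, from 96.4 ± 12.5 to 41.8 ± 1.79 CPM. Ltf, Camp, Chil3, Retnlg and Fcnb, also in this list, had at most 7 counts in any control library and were not tested. The tested markers of this lineage did not all move the same way.

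Monocyte and macrophage genes rose in 14 of 21 and fell in 5 (median 0.75). Ly6c2, an abundant surface marker of monocytes, rose 2.45-fold (1003 ± 32.5 to 2462 ± 52.4 CPM) and F13a1, coagulation factor XIII, 10.2-fold (2.67 ± 0.246 to 27.0 ± 0.627 CPM). Fcgr1, the high-affinity receptor for IgG, was close to lost, with 131, 185, 149 and 128 counts at 20% oxygen and 0, 3, 2 and 3 at 2%. Targets of the MLL fusion fell in 16 of 22 and rose in 5 (median -0.20; 18 and 1 when scaled by library size). Hoxa9, a central target, read 451, 458, 452 and 434 CPM and then 268, 256, 266 and 263 CPM (-0.77 ± 0.028, 1.71-fold lower), while Meis1, its cofactor, moved by -0.15 with overlapping groups (111, 117, 121 and 116 CPM against 113, 110, 105 and 89.7 CPM). Hoxa7 (-0.999) and Hoxa5 (-1.26) fell further. Stem and progenitor genes were divided, 4 higher and 6 lower of 10, with Cd34 up 2.37-fold and the transcription factor gene Gata2 down 1.95-fold. Among 20 myeloid transcription factors 7 rose and 10 fell (median -0.16; 6 and 13 when scaled by library size), with Klf2 at 2.14, Ikzf1 at -0.95 and Gfi1 at -0.94.

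Signalling genes showed no common direction. Of 20 chemokine and cytokine genes 11 rose and 7 fell, with a median of 0.20 that turned to -0.01 when scaled by library size. The homing receptor gene Cxcr4 rose 2.45-fold (118 ± 12.2 to 289 ± 14.9 CPM) and Tnf, tumour necrosis factor, fell 6.95-fold at a low level. Interferon response genes fell in 7 of 14 and rose in 4 (median -0.43; 10 and 1 when scaled by library size), and immediate early genes, which also answer to handling, fell in 10 of 17 and rose in 3 (median -0.44; 13 and 1), with Jund at -1.27 and Ier3 at 2.72. Of 11 tested replication-dependent histone genes 8 rose and 0 fell (median 0.79). Their messenger RNA lacks the poly(A) tail by which these libraries were selected, so that the counts cover a part of it.

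Markers of the labelled cell type were present: all 10 myeloid leukemia markers were tested, and their summed level was 2557 to 2615 CPM at 20% and 2604 to 2761 CPM at 2% oxygen. Markers of other cells were mostly absent. Of 12 T and NK cell markers 1, Lck, passed the filter on counts (summed level of the list 31.1 to 37.5 CPM at 20% and 12.7 to 14.7 at 2%), and Cd3e, Cd3g, Cd2, Gzmb and Ncr1 were at 0. Of 9 B cell markers 1, Ighm, passed (33.1 to 35.5 and 22.5 to 24.2 CPM), with Pax5 and Ebf1 at 0. Erythroid markers summed to 1.65 to 2.05 and 3.03 to 4.95 CPM, with 3 of 9 tested and Slc4a1 at 0. Megakaryocyte and mast cell markers rose from 9.82 to 12.1 CPM to 63.1 to 71.1 CPM, nearly all in the basophil protease gene Mcpt8 (6.87-fold), with 5 of 9 tested and Fcer1a, Cma1 and Tpsb2 at 0. Stroma and endothelium markers (2 of 10 tested, with Dcn, Col1a2, Cdh5 and Kdr at 0) summed to 180 to 188 and 269 to 303 CPM, nearly all in Pecam1, which myeloid cells also express.

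The largest rises and falls were taken among called genes with a mean log2 CPM of at least 3 over the control libraries and no overlap between the groups. Beside Stc1, Bhlhe40, Bnip3, Aldoc and Acss2, the 12 largest rises included Basp1, a membrane protein gene (5.98 ± 0.150), Selenbp1, Mgarp, a mitochondrial protein gene (5.31 ± 0.156), Ndrg2 (4.81 ± 0.097), Dlc1, a GTPase regulator (4.41 ± 0.089), and Il1r2, the decoy receptor of interleukin 1 (3.99 ± 0.091). Selenbp1, a selenium-binding protein with methanethiol oxidase activity in humans, read 41.3, 34.5, 32.5 and 42.3 CPM at 20% oxygen and 1669, 1807, 1714 and 1900 CPM at 2%. No library came near the other group, and the 47.0-fold rise (5.56 ± 0.082) took it among abundant transcripts. Among the 12 largest falls, Mamdc2, a gene of a secreted matrix protein, read 367, 379, 392.4 and 355 CPM and then 16.4, 20.8, 16.7 and 16.7 CPM (21.1-fold lower, -4.40 ± 0.069). Taf4b, a subunit of the general transcription factor TFIID, fell 9.76-fold and Thbs1, the matrix protein thrombospondin 1, 8.10-fold. The other 9 were Snhg5, Snhg12, Snhg1, Snhg17, Col4a1, Soat2, Slc7a11, Trib3 and Cox6a2.

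A small set of genes passed from near silence to clear expression. With at most 3 counts in every library at 20% oxygen and at least 30 in every library at 2%, there were 25 genes, of which 23 are neither predicted genes nor pseudogenes. Fgf23, a phosphate-regulating hormone of bone, had 1, 0, 0 and 1 counts and then 295, 315, 255 and 246. Atp7b, a copper exporter, had 1, 0, 1 and 3 and then 183, 249, 194 and 210 counts, and Dysf, a membrane repair protein, 2, 1, 1 and 0 and then 145, 164, 160 and 161. Mboat2, an acyltransferase, Prr15, Fxyd4, Rtn4rl2 and Adm were the others named by level. The reverse held for 2 genes, of which Fcgr1 is the named gene. A library that shows 0 counts may still hold up to 3, which equals 0.126 CPM at the mean depth.

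Whether the response differs between control and MCT4-KO cells was asked by the interaction, the response of control cells minus that of MCT4-KO cells. With the number of clones not given, an effect of MCT4 cannot be told apart from a difference between clones or cultures. The targeted gene Slc16a3 read 70.4, 72.4, 82.1 and 94.7 CPM in MCT4-KO cells at 20% oxygen and 370.3, 369, 358 and 363 CPM at 2%, below every control library at the same oxygen level but not absent. These responses share no libraries. Of the genes called in control cells 85.2% were called the same way in MCT4-KO cells, where 76.4% of tested genes were called, and 87.4% of the genes called there were called the same way in control cells. Of the 2791 genes that control cells changed at least 2-fold, 2609 were called the same way and 26 had the opposite sign. The interaction itself was called for 3155 genes (22.9%), of which 2151 responded more strongly in control and 1004 in MCT4-KO cells. The differences were small, with a median of 0.29 on the log2 scale and 386 of at least 1.5-fold. Across genes, which are not independent replicates, the responses correlated with Pearson's r = 0.91.

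Ribosome assembly genes had more interaction calls than any other list with 10 or more tested genes, 41 of 52, with a median response of -0.62 in control and -0.39 in MCT4-KO cells. The lists with a share above the 22.9% of all genes also included nucleotide synthesis (17 of 26, medians -0.08 and 0.15), aminoacyl-tRNA synthetases (14 of 20, -0.63 and -0.38), Atf4 and amino acid response (19 of 36, -1.13 and -0.97), cholesterol synthesis (17 of 29, 1.55 and 1.60) and monocyte genes (12 of 21, 0.75 and 0.64). Glycolysis was near that share (6 of 24, 1.78 and 1.81). Gart fell in control cells (-0.72 ± 0.038) and stood at -0.02 ± 0.037 in MCT4-KO cells, and Myc fell by 0.58 in control against 0.16. Slc16a1 fell further in control cells (-1.01 against -0.46, a difference of -0.55 ± 0.055), while the difference in the rise of Slc16a3 missed the threshold (-0.24 ± 0.103, edgeR adjusted p = 0.104) and passed it without replicate 3 of control cells or replicate 4 of MCT4-KO cells at 20% oxygen (-0.30 and -0.33).

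Among called genes with a mean log2 CPM of at least 3, the interaction was led in size on the positive side by BC035044, Igsf6, Rorb, Sgsm1, Mettl18 and Pik3ip1, and on the negative side by Stc1, Basp1, Thbs1, Neat1, Lilrb4a and Abi2. Igsf6, an immunoglobulin superfamily gene, rose in control cells from 4.88, 5.68, 5.02 and 5.60 to 12.9, 13.4, 13.3 and 14.9 CPM, and in MCT4-KO cells moved from 8.39, 8.02, 9.04 and 8.17 to 9.32, 10.98, 9.17 and 9.53 CPM. The control groups lay far apart and the MCT4-KO groups next to each other, a difference of 1.15 ± 0.106 (edgeR adjusted p = 1.64e-06). Pik3ip1, an inhibitor of PI3 kinase, rose 2.42 in control and 1.48 in MCT4-KO cells, and Mettl18, a methyltransferase gene, 1.98 and 1.005. BC035044 fell less in control (-0.44 against -1.61) and Sgsm1 rose more (3.03 against 2.04).

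Neat1, the RNA scaffold of paraspeckles, had opposite signs: it read 27.6, 28.4, 37.7 and 29.9 CPM in control cells at 20% and 20.96, 22.1, 23.8 and 26.8 CPM at 2%, against 17.1, 17.5, 20.3 and 23.2 and then 30.8, 28.3, 31.5 and 33.0 CPM in MCT4-KO cells. It fell in control cells (-0.40 ± 0.100) and rose in MCT4-KO cells (0.66 ± 0.101), and it is retained in the nucleus. Thbs1 fell by 3.02 in control and by 1.92 in MCT4-KO cells, Abi2, an actin regulator, by 1.09 and 0.23, and Lilrb4a rose by 0.64 and 1.54. Stc1 (6.82 against 8.17) and Basp1 (5.98 against 7.18) rose more in MCT4-KO cells, from levels near the limit of detection at 20% oxygen. Rorb, a nuclear receptor gene, read 17.2, 27.1, 18.1 and 41.5 CPM in control cells at 2% oxygen, and its rise there (0.82) was not called without replicate 4 (0.50). The interaction calls of Stc1, Basp1 and Rorb (edgeR adjusted p = 0.0447, 0.0395 and 0.0394) were lost with limma-voom, for Rorb also with DESeq2's Wald test, and on leaving out single libraries, replicate 1 of control cells at 20% oxygen for all 3, replicate 4 of that group for Stc1 and Basp1 and replicate 3 for Rorb, and 1 or more libraries of each other group for all 3. Over all libraries left out in turn the difference ranged from -1.65 to -0.98 for Stc1, from -1.43 to -0.93 for Basp1 and from 0.76 to 1.24 for Rorb.

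**Figure D5:**
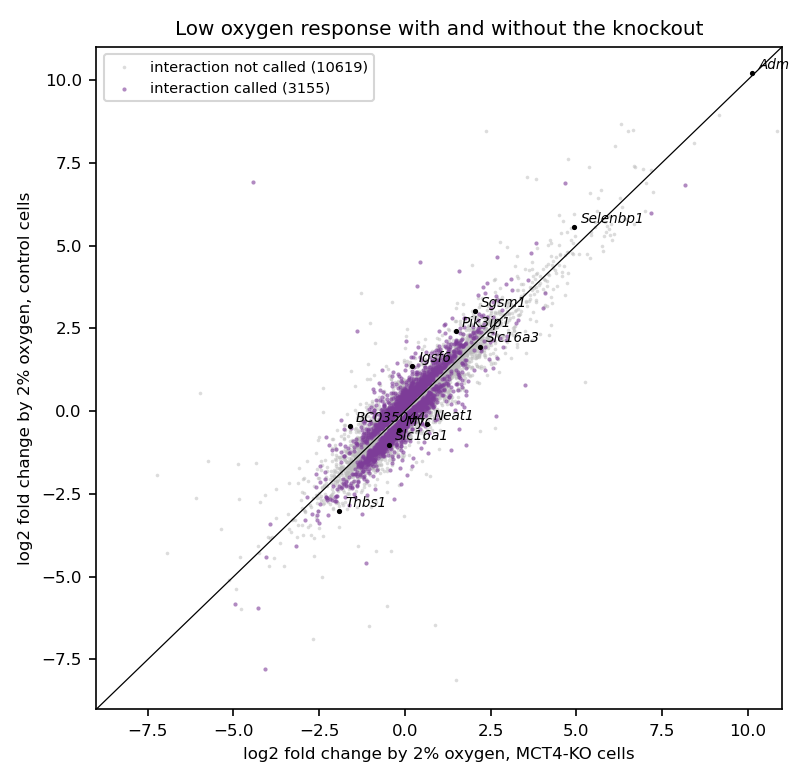
Log2 fold change by 2% oxygen in control cells (vertical axis) against that in MCT4-KO cells (horizontal axis) for the 13774 tested genes, each point a gene, in purple where the interaction was called (3155) and grey where it was not. The line marks equal responses, most genes lie along it (r = 0.91), and Neat1 (-0.40 and 0.66) and Igsf6 (1.36 and 0.21) are among those off it.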

How the data were processed

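Messenger RNA of 16 libraries was measured, 4 each of control and MCT4-KO cells at 20% and 2% oxygen. Libraries were made with poly(A) selection, per the labels' protocols. HISAT2, RSEM and the mm10 build are named, with no versions, in the submitters' processing notes. The deposited expected counts per gene were estimated with RSEM by the authors, per the submitters' processing notes; 10.1% of them were not whole, and all were rounded here. No source used here gives the annotation release or the strand setting, so reads of overlapping genes cannot be told apart. Symbols and lengths came from GENCODE vM21, which matched 53706 of 53801 gene IDs (the other 95 held 0.0103% of the counts).

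Genes passing edgeR's filterByExpr (13774) were scaled by TMM and fitted with edgeR 4.0.16 in R 4.3.3 by quasi-likelihood over all 16 libraries with a mean for each group, so that all groups share the estimated spread (a coefficient of variation between replicates of 4.61%, with 12 degrees of freedom left). Benjamini-Hochberg adjustment ran over all tested genes, with calls at an adjusted p under 0.05. The prior count was 2. Fold changes are 2% against 20% oxygen. The ± after a log2 fold change is an approximate standard error, the size of the change divided by the square root of its quasi-likelihood F statistic. After a CPM or a share, ± is the SD over 4 libraries. Per-library CPM used TMM-scaled library sizes. Single shares were tested by exact permutation, which with 4 against 4 cannot go below p = 0.0286. In counts simulated for this comparison over 13774 genes, 50 genes were changed at each of 1.2, 1.5, 2 and 3-fold and all others left equal. Of the changed genes 72, 84, 100 and 98% were called, and 5.35% of the calls were false. In the data 78.3% of genes were called, a setting unlike the simulated one, so these shares do not gauge the errors among those calls. Alternatives used DESeq2 1.42.0, limma 3.58.1, other scalings and filters, a replicate block and single libraries left out.

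Genes were named by a rule: a short fixed set, the 12 largest rises and falls above a mean log2 CPM of 3 without overlap between groups, up to 4 members of each list per direction, up to 8 genes silent at 1 oxygen level, the 6 largest interactions each way at the same level minimum and the 6 most abundant genes. Predicted genes, pseudogenes and sex-linked markers were left out of these rankings. The members, lists and this rule were chosen with earlier results of these data known. Col4a2, Fdps, Atf4 and the 7 glycolysis genes marked in the text were named after their values were seen. Some genes that the rule or the lists hold are not reported here.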

Additional observations from a re-analysis of the deposited data

Results flagged for a closer look

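Single libraries stood apart in 15 of 366 groups of 4 control libraries tested by Dixon's ratio, where about 1 in 20 is flagged by chance. At 2% oxygen, replicate 4 lay above the other 3 libraries for Uqcrh (175 CPM), Fdps (566 CPM), Snhg1 (29.6 CPM) and Snhg12 (14.5 CPM) and below them for Gpi1 (3260 CPM), Pecam1 (267 CPM), Dlc1 (159 CPM) and Thbs1 (7.68 CPM). Replicate 1 lay below for Ndrg1 (297 CPM), Nop58 (101 CPM) and Elane (3597 CPM), and replicate 2 above for Mamdc2 (20.8 CPM) and below for Cox7b (121 CPM). At 20% oxygen, replicate 1 lay below for Slc6a9 (45.2 CPM) and replicate 3 below for Mettl18 (8.94 CPM).

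For 85 of the 177 genes compared the response to 2% oxygen differed between control and MCT4-KO cells by edgeR's interaction test, against 22.9% of all tested genes; 12 of the 177 were named because their difference was among the largest, so the shares are not comparable. Each value that follows is the control response minus the MCT4-KO response on the log2 scale.

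Genes that rose in control cells, and did so by more than in MCT4-KO cells, included the myeloid genes Igsf6 (1.15), Il1r2 (0.90), Mpo (0.73), F13a1 (0.61), Cst7 (0.60), Prtn3 (0.40), Elane (0.32), Ly6c2 (0.28), Cd34 (0.27) and Pecam1 (0.17). In lipid synthesis they were Acss2 (0.37), Fdps (0.31), Insig1 (0.27), Lpin1 (0.27) and Acat2 (0.16). Among genes of growth control and translation they were Mxd1 (0.50), Mxi1 (0.18), Ccng2 (0.48), Eef1a1 (0.36), Eef2 (0.20), Rps4x (0.24) and Pik3ip1 (0.94). In metabolism, oxygen sensing and matrix they were Selenbp1 (0.61), Pink1 (0.46), Uqcrh (0.35), Ndrg1 (0.33), Gbe1 (0.26), Egln1 (0.24), Idh1 (0.23), Mthfd1l (0.23), P4hb (0.22), Gsr (0.12) and Col4a2 (1.18, at means of 0.533 and 1.68 CPM in control cells and with exons that overlap Col4a1). The remaining values were those of Rorb (1.08), Sgsm1 (0.99) and Mettl18 (0.97). A larger rise is not a higher level. Mpo had 2915 to 4262 counts in control and 6324 to 9391 in MCT4-KO libraries at 20% oxygen. At 2% it had 6449 to 8380 and 9527 to 12858. F13a1 was likewise higher in MCT4-KO cells at both levels (65 to 71 against 92 to 148, then 574 to 643 against 731 to 817). Il1r2 was higher in control cells at 2% oxygen (970 to 1139 against 561 to 639).

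Genes that rose less in control cells were Stc1 (-1.35), Basp1 (-1.20), Lilrb4a (-0.90), mt-Rnr1 (-0.67), Hmox1 (-0.55), Klf2 (-0.44), Eno1 (-0.18) and Ftl1 (-0.17).

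Genes that fell further in control cells included, of the amino acid response and tRNA charging, Slc7a11 (-0.57), Wars (-0.54), Slc7a5 (-0.43), Cth (-0.42), Trib3 (-0.40), Slc6a9 (-0.35) and Aars (-0.34). Of ribosome assembly, nucleotide synthesis and Myc they were Nop56 (-0.46), Nop58 (-0.45), Ddx21 (-0.42), Gart (-0.70), Ppat (-0.31), Myc (-0.42) and Max (-0.31). Of mitochondria and metabolism they were Slc16a1 (-0.55), Pprc1 (-0.53), Mrps18b (-0.44), Twnk (-0.43), Lrpprc (-0.24), Dld (-0.14), Tigar (-0.38), Dgat2 (-0.41), Soat2 (-0.39) and Car12 (-0.45). The remaining values were those of Thbs1 (-1.10), Abi2 (-0.86), Col4a1 (-0.85), Taf4b (-0.71), Lcn2 (-0.60), Snhg17 (-0.48), Mamdc2 (-0.35), Jund (-0.29) and Orc2 (-0.23). Neat1 and Hif1a, with opposite signs in the genotypes, differed by -1.06 and -0.21.

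Genes that fell less in control cells were BC035044 (1.17), Snhg1 (0.55), Zfas1 (0.29), Ighm (0.25), Atf5 (0.24) and Slc25a37 (0.21).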

How the results depend on the processing

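Requiring a change above 1.5-fold left 4077 genes called (2199 higher and 1878 lower) and 3 called in the interaction, fewer by the construction of that test. Scaling by library size gave 3874 genes higher and 7121 lower. These counts and those of the settings that follow stayed within 1.5 times of the reported ones. Called genes numbered 11471 with no filter on low counts and 9773 with at least 1 CPM in 8 libraries. There were 10557 with DESeq2's Wald test, 10773 with limma-voom and 10316 with the control libraries alone. With 1 control library left out in turn, 10594 to 10691 genes were called, 5226 to 5279 higher and 5368 to 5421 lower, and with 1 of the 16 left out the interaction was called for 2635 to 3339. Same-numbered control libraries did not deviate together (r = -0.18, -0.11, 0.06 and -0.28). Libraries of differing number reached r = 0.34 (replicate 2 at 20% with replicate 4 at 2% oxygen). These values therefore cannot settle whether the numbers mark shared cultures. A replicate block left 10706 calls and 2781 interaction calls. Under the block the Stc1 interaction was not called (-1.35, edgeR adjusted p = 0.0723, in a range of 0.00142 to 1 over its alternatives). Of 3586 values of named genes recomputed under the alternatives, 3514 kept their direction and side of the threshold, 68 lost the call, 4 gained one and 0 reversed. The interaction of Slc16a3 was called with no filter on low counts (-0.24). Genes at or under the 3-count limit carry no usable fold, and the depth of 21192180 to 25039670 counts sets that limit at 0.126 CPM.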
